A study of Mus musculus with 17 samples.

Results

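Of 17 TH-MYCN tumors, 3 carried high levels of skeletal muscle RNA, and they are compared here with the other 14. The 3 tumors were chosen by the measurements themselves: each tumor was ranked on the average log2 expression value of Myh4, Acta1, Ckm and Tnnc2, and the 3 highest, mad553, mad550 and mad549, form the muscle-rich group. All 17 are primary abdominal neuroblastomas of hemizygous TH-MYCN mice on an inbred background, in which a rat tyrosine hydroxylase promoter drives MYCN in cells of the neural crest lineage. Both groups carry the same transgene, none was treated as far as the labels say, and neither sex nor age is given for a tumor. RNA of each tumor was measured on its own Affymetrix mouse array, so that the spread below is the spread between tumors, and with 3 arrays in the smaller group the precision is limited. The values are RMA log2 expression values per probeset, and a gene is represented by the probeset with its highest mean among those named for 1 gene.

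Skeletal muscle contracts when calcium released from the sarcoplasmic reticulum binds troponin and lets myosin thick filaments pull on actin thin filaments. Fast-twitch fibers rely on glycogen and phosphocreatine and use their own forms of myosin, troponin and the calcium pump, whereas slow-twitch fibers share several of these forms with the heart. Neuroblastomas, in contrast, consist of sympathetic neuroblasts that make catecholamines and do not form sarcomeres.

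The ranking average was 13.97 (mad553), 12.28 (mad550) and 11.87 (mad549), on the log2 scale. In the other 14 it lay between 6.04 and 7.31, with mad559 at 7.31 and mad551 at 7.06 just outside the chosen group. The gap between the lowest tumor inside and the highest outside was therefore 4.56, and the same 3 tumors came first when any of the 4 genes was left out or all probesets were averaged. Myh4, the myosin heavy chain of the fastest fibers, stood at 14.76 (mad553), 13.20 (mad550) and 12.92 (mad549), against 6.13 to 7.86 elsewhere. Acta1, skeletal alpha actin, read 14.25, 13.02 and 12.38 in the same order, against 6.31 to 8.29. Ckm, muscle creatine kinase, read 13.66, 11.24 and 11.07, against 6.0 to 6.58. Tnnc2, fast troponin C, read 13.20, 11.68 and 11.13, against 4.92 to 6.52. These 4 genes chose the tumors and were left out of the counts below unless stated. Over all probesets the median correlation of an array with the others ran from 0.978 in mad562, where the liver gene Alb read 12.52, to 0.991 in mad551, with mad553 at 0.984.

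Across the remaining 18189 genes, the 3 muscle-rich tumors differed from the other 14 in a small set of genes, nearly all in one direction. With limma, 63 genes were higher at a Benjamini-Hochberg adjusted p under 0.05, which is 0.346% of those tested, and 52 of them were at least 2-fold higher. No gene was lower by the same criterion (0%), while 218 were lower and 289 higher at an unadjusted p under 0.05. In 66 genes (0.363%) all 3 muscle-rich tumors lay above all 14 others, and in 8 (0.044%) all 3 lay below. The median difference over all genes was -0.027. Of the 63 higher genes, 44 belonged to the lists of skeletal muscle genes or muscle regulators and 19 did not. The count at least 2-fold higher was 33 without mad553 and 82 without mad549, and it was 3 when only genes at or above the median level were tested. Skeletal muscle genes measure the same property as the ranking genes, so their values are given as a description with no p of their own, and the count of 63, which they dominate, is a description in the same sense.

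The skeletal muscle lists held 111 measured genes besides the ranking genes, with a median difference of 0.868. All 3 muscle-rich tumors lay above the others in 43 of them, against 0.363% of all genes. By the group means, 48 of the 111 were at least 2-fold higher, against 89 of all 18189 genes tested. The other members differed less or not at all, so that the lists did not move as a whole. Of 50 muscle and regulator genes with more than 1 probeset, ranking genes included, all probesets were free of overlap in 5, some in 12 and none in 33. The plot of muscle genes by tumor shows both kinds.

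**Figure D1:**
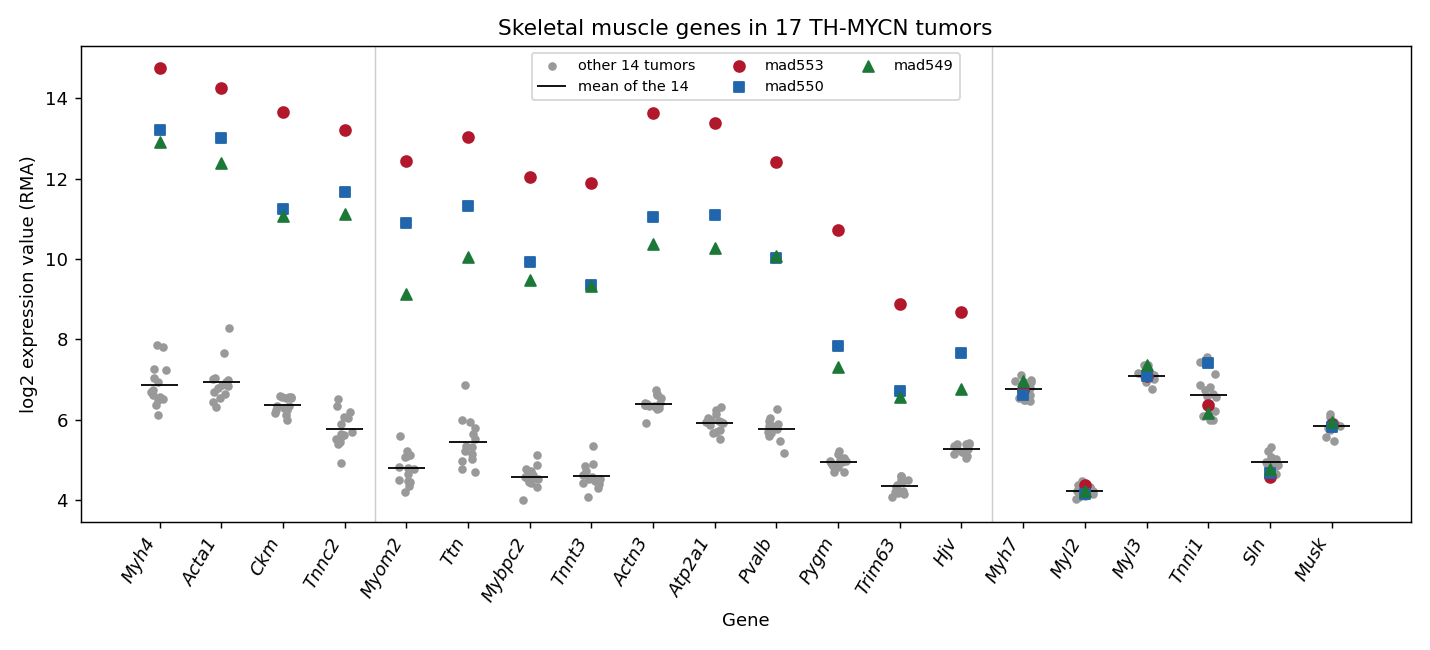
Log2 expression values (RMA) of the 4 ranking genes, 10 further fast or general muscle genes and 6 slow-fiber or synapse genes, separated by vertical lines, in each of 17 tumors (gray points, the other 14; horizontal line, their mean). The ranking genes and the middle block lie far above the gray points in mad553, mad550 and mad549, for example Atp2a1 at 13.38, 11.10 and 10.28, whereas the last block, for example Myh7 at 6.75, 6.61 and 6.96, overlaps or adjoins them.

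The thick filament list, with myosins and the proteins that bind them, had the largest median difference among the muscle lists, 1.60 over 16 genes, and 8 of them did not overlap between the groups. Myom2, which crosslinks myosin at the M band, was 12.45 (mad553), 10.90 (mad550) and 9.13 (mad549), against 4.20 to 5.59 in the others. Ttn, the titin spring that spans the sarcomere, was 13.04, 11.32 and 10.06, against 4.70 to 6.87. Mybpc2, the fast form of myosin-binding protein C, was 12.04, 9.92 and 9.48, against 4.0 to 5.13. All 3 genes therefore separated the groups without overlap and in the same order of tumors. Among the light chains, Mylpf of fast fibers read 12.24, 10.35 and 9.72, against 5.63 to 6.52, and Myl1 read 11.02, 9.18 and 7.58, against 4.11 to 4.82.

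The slow members of the same list were divided. Mybpc1, the slow form of myosin-binding protein C, was 9.01 (mad553), 7.47 (mad550) and 5.90 (mad549), against 4.89 to 5.87, with mad549 at the edge of the others and with 1 of its 3 probesets free of overlap. The slow myosin chains showed no such separation. Myh7, the slow and cardiac myosin heavy chain, read 6.75 (mad553), 6.61 (mad550) and 6.96 (mad549), within the range of 6.48 to 7.12 of the others. Myl2, the slow regulatory light chain, read 4.38, 4.17 and 4.24, within 4.04 to 4.49, and Myl3 read 7.09, 7.09 and 7.35, within 6.77 to 7.36. Without detection calls, a probeset that stays low cannot be told from one that fails to measure its RNA.

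Thin filament and Z disc genes followed the same division. Of 26 measured, 13 did not overlap between the groups, and the median difference was 1.0. Tnnt3, fast troponin T, was 11.89 (mad553), 9.36 (mad550) and 9.33 (mad549), against 4.08 to 5.35. Actn3, the alpha-actinin of fast fibers, was 13.63, 11.05 and 10.37, against 5.91 to 6.73. Myot, a Z disc protein, was 10.91, 8.50 and 7.68, against 3.81 to 4.30, and Neb, the nebulin ruler of the thin filament, was 10.88, 8.62 and 7.12, against 3.83 to 4.54. Klhl41, a protein of sarcomere assembly, read 6.99, 5.19 and 4.84, against 3.75 to 4.32. Among the slow troponins, Tnnc1 was 7.37 (mad553), 8.06 (mad550) and 7.29 (mad549), against 6.38 to 7.53, so that mad550 alone lay above the others. The other slow troponins overlapped throughout: Tnni1 was 6.38, 7.42 and 6.16 within 5.99 to 7.58, and Tnnt1 was 4.83, 5.59 and 5.23 within 4.76 to 5.80.

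Genes of calcium handling and excitation had a median difference of 0.76, and 8 of 19 did not overlap. Atp2a1, the fast-fiber calcium pump of the sarcoplasmic reticulum, was 13.38 (mad553), 11.10 (mad550) and 10.28 (mad549), against 5.53 to 6.32. Pvalb, the calcium buffer parvalbumin, was 12.40, 10.01 and 10.08, against 5.19 to 6.26. Trdn, the triadin of the release complex, was 9.56, 7.46 and 7.04, against 4.05 to 4.62, and Casq1, the fast calsequestrin, was 10.78, 9.55 and 8.96, against 6.4 to 7.06. Each was highest in mad553. Sln and Pln, small inhibitors of the calcium pump found in atrial and slow muscle, were not raised by the probesets of highest mean. Sln was 4.59, 4.67 and 4.77, against 4.66 to 5.33, but its difference turned from -0.27 to 0.90 with its other probeset, so that no direction is given for it. Pln was 6.13, 6.33 and 6.13, within 6.07 to 6.61.

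Among 22 genes of muscle energy metabolism, 7 did not overlap, with a median difference of 0.81. Pygm, the muscle phosphorylase that breaks down glycogen, was 10.71 (mad553), 7.84 (mad550) and 7.31 (mad549), against 4.71 to 5.24. Pgam2, a glycolytic mutase of muscle, was 9.70, 7.25 and 6.38, against 4.69 to 5.47, and Ampd1, the muscle AMP deaminase, was 8.03, 6.52 and 6.48, against 4.24 to 4.91. Glycogen, glycolysis and AMP turnover were thus each represented. Fabp3, a fatty acid carrier of oxidative muscle and heart, was 6.97, 6.79 and 7.29, within 6.48 to 9.28. Mb, the oxygen store myoglobin, was 9.07 and 9.61 in mad553 and mad550 but 7.06 in mad549, and only the last lay within the 6.26 to 7.68 of the others.

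Membrane and junction genes had the smallest median difference of the 6 muscle lists, 0.45, and 3 of 19 did not overlap. Hjv, the hemojuvelin of muscle and liver, was 8.69 (mad553), 7.66 (mad550) and 6.78 (mad549), against 5.06 to 5.42, while the liver gene Alb stayed at 5.12, 4.79 and 5.14. Chrnb1, a subunit of the acetylcholine receptor, was 6.64, 5.68 and 5.47, against 4.33 to 5.17. The synaptic organizers overlapped with the other tumors throughout. Musk, the receptor kinase of the synapse, was 5.89, 5.82 and 5.96 within 5.48 to 6.13. Dok7, its activator, was 7.88, 8.12 and 8.10 within 7.55 to 8.39. The adult receptor subunit Chrne was 5.71, 5.73 and 5.78 within 5.54 to 5.85.

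The ligase and secreted list had a median difference of 0.87, and 4 of its 9 genes did not overlap. Despite its name, the measured members included ligase genes and the small heat shock genes Hspb6 and Hspb7, and none known chiefly as a secreted factor. Trim63, the MuRF1 ubiquitin ligase of muscle atrophy, was 8.88 (mad553), 6.72 (mad550) and 6.58 (mad549), against 4.08 to 4.61. Its relative Trim54 was 9.04, 7.73 and 6.25, against 4.58 to 5.46, and Asb5 was 8.84, 8.06 and 5.44, against 4.62 to 5.26. Fbxo32, the atrogin-1 ligase often read together with Trim63, was 9.10, 8.12 and 8.41, and overlapped with the others at 7.51 to 8.64.

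The promoters of several of these genes are shown because the genes rise together and are known targets of the E-box factors of the MyoD family, of MEF2 and of SRF. Sequences are from RefSeq on GRCm38.p6, read toward the start site, and end at the last base before it. Capitals mark CAGCTG, the MEF2 site and the CArG box, searched on both strands from 250 bases before to 50 bases after each start. The first 5 genes had all 3 muscle-rich tumors above the others, and Chrna1 and Myh8 are taken up below.
Myh4 (chr11:67237622-67237811, plus strand): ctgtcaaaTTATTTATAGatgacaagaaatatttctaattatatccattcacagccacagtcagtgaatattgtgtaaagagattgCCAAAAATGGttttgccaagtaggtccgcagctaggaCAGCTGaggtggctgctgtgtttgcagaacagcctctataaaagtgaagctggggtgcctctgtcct
Mylpf (chr7:127211548-127211607, plus strand): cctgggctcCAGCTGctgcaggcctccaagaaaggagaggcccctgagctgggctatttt
Atp2a1 (chr7:126463074-126463133, minus strand): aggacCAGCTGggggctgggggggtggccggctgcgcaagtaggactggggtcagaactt
Pgam2 (chr11:5803797-5803926, minus strand): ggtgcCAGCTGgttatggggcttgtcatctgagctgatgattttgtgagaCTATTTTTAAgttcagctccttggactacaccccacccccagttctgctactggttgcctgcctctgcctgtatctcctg
Klhl41 (chr2:69669990-69670119, plus strand): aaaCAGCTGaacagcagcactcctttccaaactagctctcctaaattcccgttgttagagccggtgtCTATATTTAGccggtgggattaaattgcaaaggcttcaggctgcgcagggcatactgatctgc
Chrna1 (chr2:73580339-73580438, minus strand): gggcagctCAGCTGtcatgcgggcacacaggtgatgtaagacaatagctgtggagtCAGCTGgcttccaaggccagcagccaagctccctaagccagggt
Myh8 (chr11:67277024-67277123, plus strand): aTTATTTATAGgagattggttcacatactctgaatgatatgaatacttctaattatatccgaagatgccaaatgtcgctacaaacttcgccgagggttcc

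CAGCTG was found in 23 of the 34 promoters (67.6%) of ranking and muscle-list genes in which all 3 muscle-rich tumors lay above the others. It was found in 24 of 66 promoters (36.4%) of the other muscle-list genes and in 2322 of 14452 (16.1%) of all measured genes with a promoter. A MEF2 site was found in 8 of the 34 (23.5%), 8 of the 66 (12.1%) and 2.0% of all. The CArG box was found in 3 of the 34 (8.8%), 6 of the 66 (9.1%) and 1.4% of all. The 3 motifs share no letters where they match in the sequences above, and a match in this window is a description and not a binding site.

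Many muscle proteins have a close relative that other tissues use, and such pairs were compared form by form. Of 27 pairs measured, the muscle form lay above all 14 other tumors in all 3 muscle-rich tumors in 13 (background 0.363%). In 14 pairs it was at least 2-fold higher by the group means (background 89 of 18189 genes, ranking genes left out). Acta1 and Ckm, which chose the tumors, are among these muscle forms. The other form did so in 0 pairs, and 0 of the other forms reached an adjusted p under 0.05 in limma, with 1, Cox8a, at an unadjusted p of 0.036 and a difference of -0.22. The median difference was 1.15 for the muscle forms, Acta1 and Ckm included, and -0.092 for the other forms, which ranged from -0.37 to 0.41. Several other forms were high in all tumors, such as Actb at 14.15 to 14.55 in the other 14, and some were low, such as Ryr2 at 4.37 to 5.93. Where a form is already high, an added amount of RNA changes its log2 value little. A small difference there cannot show that the muscle RNA lacked that form. Atp2a2, the slow and general calcium pump, was 12.93 (mad553), 13.11 (mad550) and 12.92 (mad549), within 12.59 to 13.23, whereas Atp2a1 differed by 5.65. Likewise Actn4 was 11.72, 11.73 and 11.49 within 11.37 to 12.09, while Actn3 differed by 5.28. Pygb, the brain phosphorylase, was 7.91, 8.64 and 8.28 against 7.99 to 8.97, with a difference of -0.13 against 3.68 for Pygm. Ldhb is entered as the muscle form of its pair although it is better known from heart and slow muscle, and it was 8.11, 8.14 and 8.95 within 7.64 to 9.52.

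**Figure D2:**
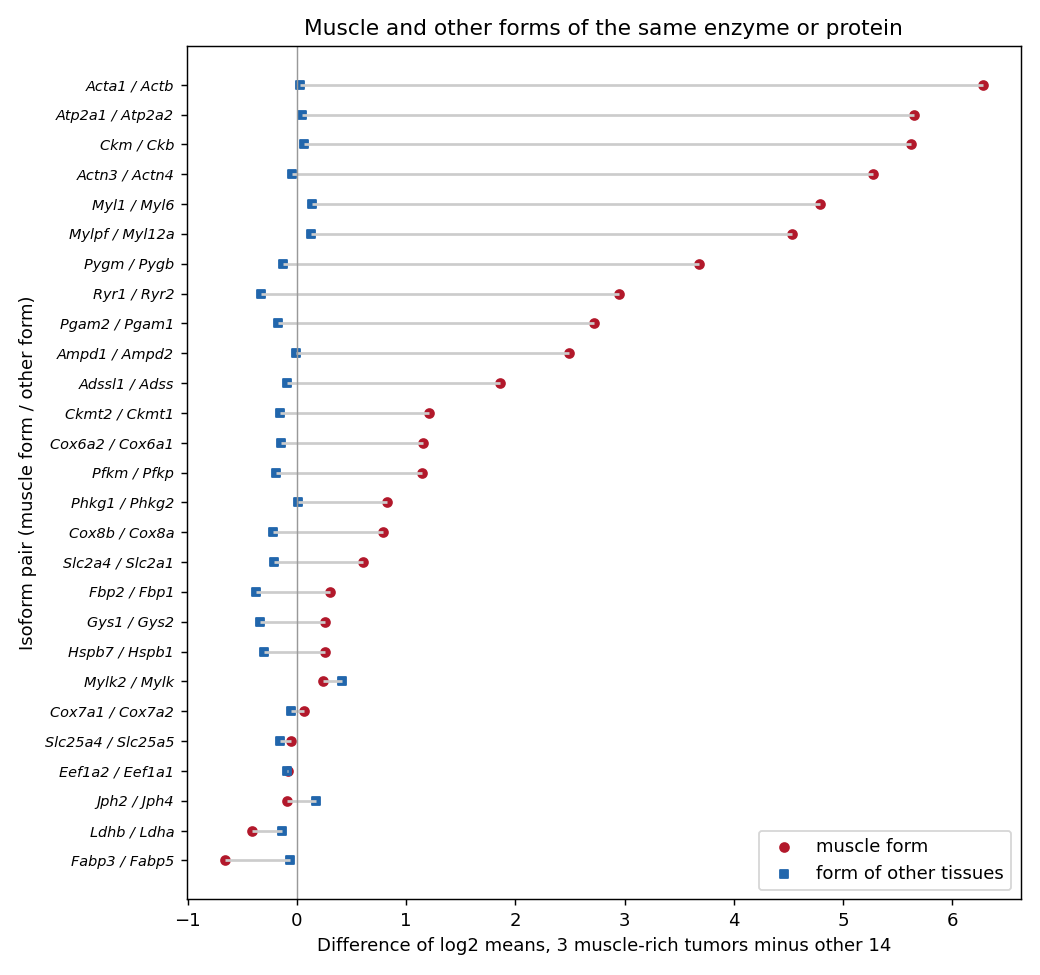
Difference of log2 means, muscle-rich tumors minus the other 14, for 27 pairs of a muscle form (circles) and a related form of other tissues (squares), joined by lines and sorted by the muscle form. The muscle forms reach 6.28 in Acta1, which like Ckm helped choose the tumors, and 5.65 in Atp2a1, the largest outside the ranking genes. The other forms lie between -0.37 and 0.41.

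The muscle-rich tumors differed from each other in amount. Of the 111 muscle genes, 68 were highest of all 17 tumors in mad553, against 601 of all 18189 genes tested. The order mad553, mad550, mad549, which is also that of the ranking average, held in 60 of the 111 and in 2037 of all 18189. On the unlogged scale, the excess over the mean of the other 14 was compared for the 32 muscle genes that were at least 4-fold higher without overlap, ranking genes included. In mad550 this excess was a median 25.5% of that in mad553, from 12.1% for Pygm to 92.5% for Myh1. In mad549 it was a median 13.7%, from 2.5% for Cacng1 to 43.0% for Tcap. The shares were thus far from equal over genes. Myh1, the heavy chain of type IIx fibers, read 12.64 in mad553 and 12.53 in mad550, nearly level, and 9.98 in mad549, against 5.42 to 9.84 in the others. These Myh1 values rest on 1 probeset, the only 1 of its 3 free of overlap, and the group differences of the 3 ran from 0.071 to 4.002. In bulk RNA, fewer cells of a type and less RNA per cell cannot be told apart.

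Regulators of muscle differed between mad553 and mad550 in kind as well as in amount. The list of 10 myogenic regulators had a median difference of 0.24, and 1 gene, Myf6, lay above the others in all 3 tumors. Myf6, the MyoD family member most abundant in mature fibers, was 8.23 (mad553), 5.90 (mad550) and 5.38 (mad549), against 4.30 to 4.80. Myog, the myogenin that drives differentiation of myoblasts, was instead 7.5 in mad550, while mad553 at 5.17 and mad549 at 4.96 lay near or within the 4.50 to 5.06 of the others. Myod1 was 6.01, 6.27 and 5.75 against 5.09 to 5.99. The satellite cell factor Pax7 was 4.46, 4.54 and 4.86 within 4.20 to 4.95, and the 5 genes of muscle stem cells had a median difference of 0.04 with none free of overlap.

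Several genes of immature muscle were higher in mad550 than in any other tumor, some of them at least 2-fold and others less. These genes were picked out after their values had been seen, and with 1 tumor no test is possible. In mad550, 8 genes lay at least 2-fold above each of the other 16 tumors: Ankrd1, Myog, Tnnt2, Mymx, Myh2, Myh8, Ppbp and Mybph. The tumors outside the muscle-rich group had from 0 to 266 such genes each, none of them in the muscle lists. Tnnt2, the troponin T of embryonic muscle and heart, was 7.26 in mad550, 4.70 in mad553 and 4.72 in mad549, with at most 5.54 in the others. That is 1 of 3 Tnnt2 probesets, whose group differences ran from 0.001 to 0.785. Mymx, which fuses myoblasts, was 5.63 in mad550, 4.16 in mad553 and 3.61 in mad549, against 3.85 to 4.25, and its partner Mymk was 5.98, 4.89 and 5.29, against 4.95 to 5.32. Myh8, the perinatal myosin, was 6.07 in mad550, 4.45 in mad553 and 4.79 in mad549, against 3.86 to 4.34. Ankrd1, a stretch-responsive protein of heart and muscle, was 8.37 in mad550, 5.74 in mad553 and 5.56 in mad549, against 4.79 to 5.98.

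The acetylcholine receptor subunits Chrna1 and Chrng, both known to rise in denervated muscle, ran the same way, but related genes did not. Mad550 was not highest for the receptor subunits Chrnb1, Chrnd and Chrne or for Musk, and Chrnd differed by -0.001 between the groups. Chrna1 was 7.80 in mad550, 6.90 in mad553 and 5.48 in mad549, against 5.25 to 5.80, and the fetal subunit Chrng was 6.54, 5.49 and 5.54, against 5.24 to 6.01. Chrng has 3 probesets, whose group differences ran from -0.019 to 0.234. Casq2, the calsequestrin of heart and slow muscle, was 8.13 in mad550, 7.72 in mad553 and 6.94 in mad549, against 7.05 to 7.68, and Myoz2, a Z disc protein of the same fibers, was 5.82, 4.97 and 4.62, against 4.59 to 5.05. Embryonic myosin Myh3 did not follow, at 9.33 in mad550, 9.85 in mad553 and 9.48 in mad549 within 8.42 to 10.95. Nor did Myl4 of the embryonic muscle list, at 6.225 in mad550, 6.583 in mad553 and 6.308 in mad549, against 5.844 to 6.521. Cardiac markers did not follow either: Myh6 was 4.29, 4.19 and 4.30 within 4.11 to 4.65, and Nppa was 4.66, 4.50 and 4.57 within 4.48 to 5.14. Ppbp, the platelet basic protein, is no muscle gene and was 8.22 in mad550, with 7.04 the highest value among the other 14. Of the 136 muscle and regulator genes, ranking genes included, 79 were highest in mad553, 19 in mad550, 3 in mad549 and 35 in 1 of the other tumors. The ranking genes are all among the 79. Over all 18189 genes tested, 601 were highest in mad553. The same count over all genes was not made for mad550 or mad549, so that their 19 and 3 have no background here.

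**Figure D3:**
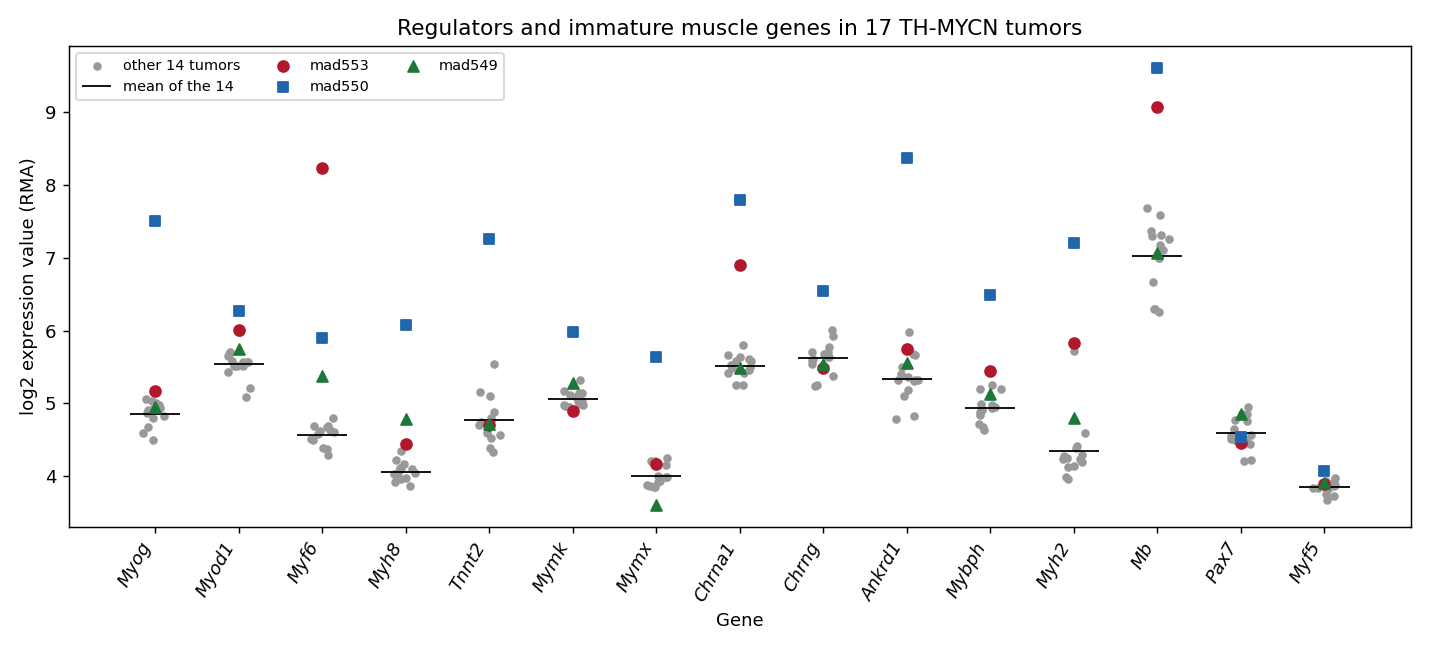
Log2 expression values (RMA) of muscle regulators, genes of immature muscle and further muscle genes (Ankrd1, Mybph, Myh2 and Mb) in each of 17 tumors (gray points, the other 14, and horizontal line, their mean). Mad550 stands above all others for Myog at 7.5, Tnnt2 at 7.26 and Ankrd1 at 8.37, and mad553 stands highest for Myf6 at 8.23. Pax7 shows no separation and Myf5 hardly any, at 4.07 in mad550 against at most 4.06 in the other 14.

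The 19 genes higher in limma outside the muscle lists were led by genes also known from striated muscle. Cmya5, a sarcomere-associated protein, was 11.20 (mad553), 8.83 (mad550) and 7.69 (mad549), against 5.03 to 6.42. Ankrd23 was 12.20, 10.05 and 8.28, against 6.67 to 7.24, and Tmem182 was 9.01, 8.24 and 6.0, against 4.67 to 5.58. Asb11, Smpx, Dhrs7c, Asb15, Abra, Alpk3 and Prkag3, the latter a muscle subunit of the AMP-activated kinase, also lay above all 14 others in all 3 tumors. The remaining genes included developmental transcription factors. Hoxc10, a posterior HOX gene, was 5.62, 5.26 and 4.67, against 4.14 to 4.47 (difference 0.85, SE 0.13). Tbx15 was 6.84, 5.68 and 5.28, against 4.76 to 5.27 (difference 0.96, SE 0.19), so that mad549 lay at the edge of the others. The share of these factors that comes with the muscle RNA was not tested, so both are given as a description without a p. Sox6, which represses slow-fiber genes in muscle, was 6.37, 5.94 and 6.09, against 5.22 to 5.87 (difference 0.57, SE 0.12). As a gene active in muscle, it too is a description without a p. Smr2 differed by 1.16, but by -0.048 with another of its probesets once those open to cross-hybridization were left out.

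Markers of the other cell types, read from 125 genes in lists of 16 types, gave 1 gene past the threshold, the actin-binding Synpo2 of the smooth muscle list, which is also expressed in skeletal muscle. Synpo2 was 9.78 (mad553), 8.67 (mad550) and 7.51 (mad549), against 6.33 to 8.06 (difference 1.62, SE 0.34). As a gene also of skeletal muscle, it is given without a p, and its call is a description. The other 8 smooth muscle genes did not pass, although all 9 differences were above 0 with a median of 0.41. The mean level of the smooth muscle list was 8.91 (mad553), 8.61 (mad550) and 7.91 (mad549), against 7.29 to 8.48, so that mad553 and mad550 lay above the others, and the part of this in the muscle difference was not tested. Myh11, the defining smooth muscle myosin, was 7.88, 7.74 and 6.09, against 5.64 to 7.32. Of 12 fibroblast and matrix genes none passed, with a median difference of 0.34, and their mean level was 10.13 (mad553), 9.24 (mad550) and 9.27 (mad549), against 8.29 to 9.81. Mad553 thus had the highest mean level of the fibroblast list among the tumors, and the part of this in the muscle difference was not tested. Fap, a fibroblast protease, was 6.45, 6.53 and 6.36, against 5.08 to 6.37 (difference 0.74, SE 0.18, adjusted p = 0.14).

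Fat and immune markers varied widely among the other 14 tumors, and none passed the test. Adipoq, made by fat cells, was 8.21 (mad553), 6.33 (mad550) and 7.19 (mad549), within 4.66 to 10.81, and the 10 white fat genes had a median difference of -0.17. Car3, abundant in fat and slow muscle, was 12.72, 10.81 and 12.29, within 4.64 to 13.35. The 12 macrophage genes had a median difference of 0.23, with Csf1r at 11.31, 12.01 and 10.64 within 10.40 to 12.78. The 9 cardiac muscle genes had a median difference of -0.09 and the 6 tendon genes 0.06. Cryab, a small heat shock protein of striated muscle, was 10.27 (mad553), 9.94 (mad550) and 7.70 (mad549), against 5.84 to 8.12 (difference 2.03, SE 0.45). It did not pass the threshold, and as a gene also of muscle it is given without a p. Sex-linked genes did not run with the grouping, since Xist was 8.03, 13.52 and 13.36 and Eif2s3y 10.63, 3.63 and 4.09.

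**Figure D4:**
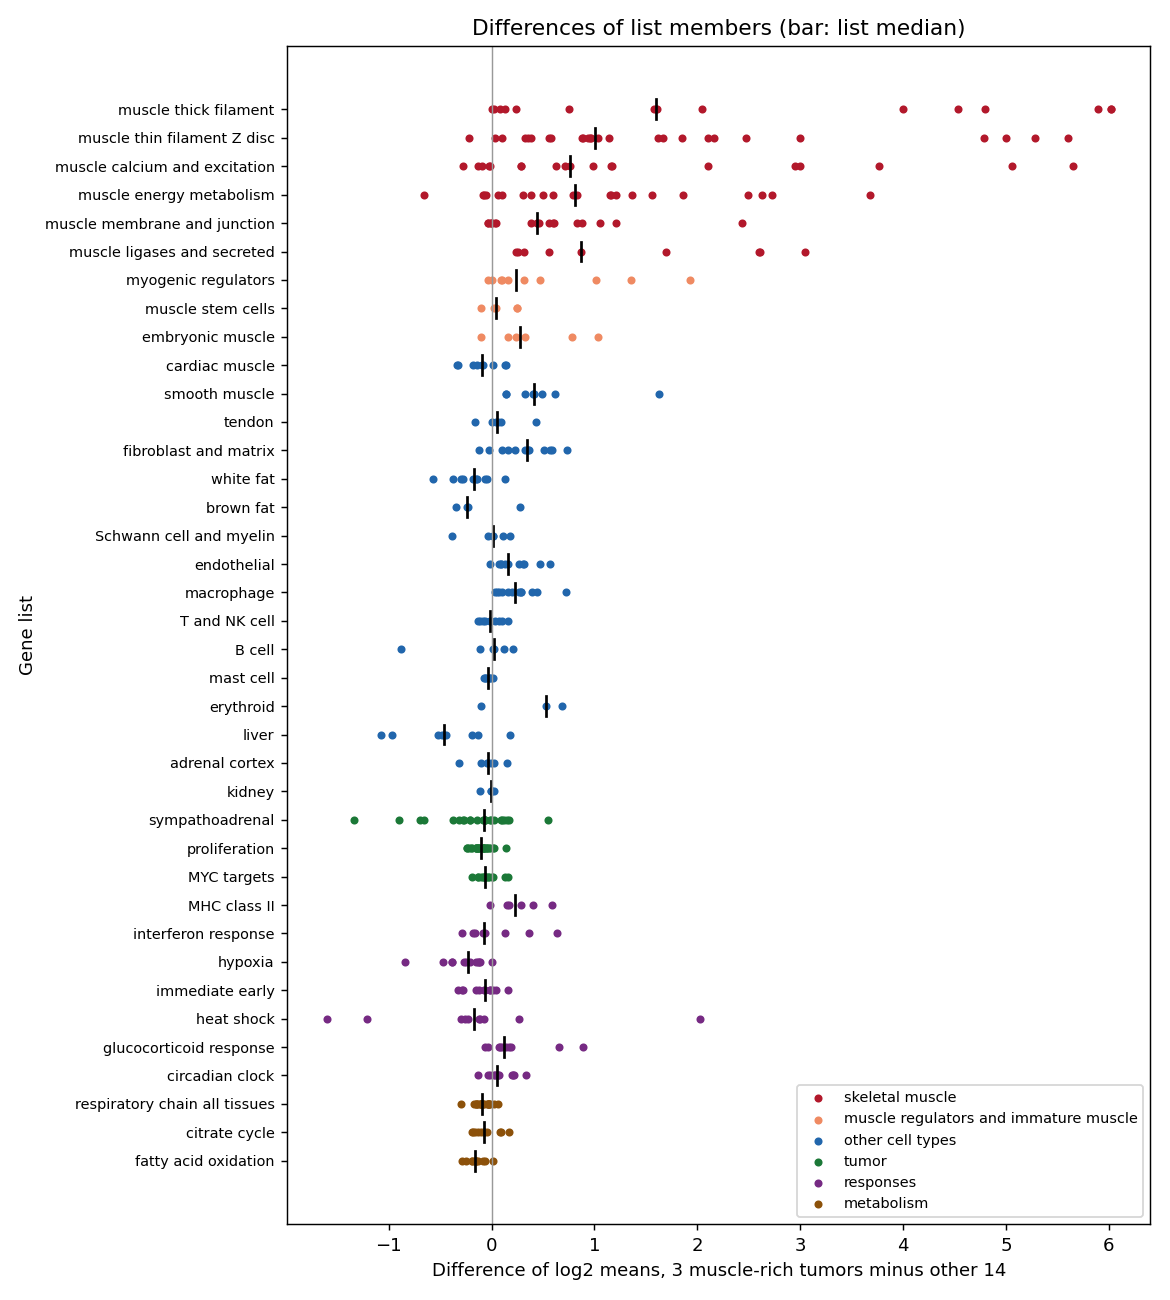
Difference of log2 means, muscle-rich tumors minus the other 14, for each measured member of 38 gene lists, with the list median as a black bar and the ranking genes left out. Skeletal muscle lists spread up to 6.02 with medians from 0.45 to 1.60, while the medians of the other lists lie between -0.46 (liver) and 0.53 (erythroid).

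Genes of the tumor cells themselves showed no difference that passed the test. Of 25 sympathoadrenal genes 0 passed in limma, with 1 higher and 1 lower at an unadjusted p under 0.05 and a median difference of -0.07. Th, the rate-limiting enzyme of catecholamine synthesis, was 13.20 (mad553), 12.83 (mad550) and 11.54 (mad549), against 11.72 to 14.33. Npy, a sympathetic neuropeptide, was 8.85, 9.06 and 9.04, within 8.47 to 12.06 (difference -1.34, SE 0.65, adjusted p = 1). Of 26 proliferation genes 0 passed in limma and 0 had an unadjusted p under 0.05, with a median difference of -0.10. Their mean level was 11.28 (mad553), 11.50 (mad550) and 11.74 (mad549), against 11.44 to 11.73. Mad553, the tumor with the highest muscle average, had the lowest value of all 17 tumors in 17 of the 26, and in 2339 of all 18189 genes. Kif20a, a mitotic kinesin, was 9.41 there, with 9.94 the lowest among the other 14. Mad549, in contrast, had the highest mean level of this list among the 17, but only just, at 11.744 against 11.733 in mad558.

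Genes of the respiratory chain that all tissues share gave no call. Of 21 measured 0 passed in limma, with 1 lower at an unadjusted p under 0.05, and the median difference was -0.09. Sdhd, a subunit of succinate dehydrogenase, was 10.83 (mad553), 10.93 (mad550) and 11.11 (mad549), against 11.10 to 11.50 (difference -0.30, SE 0.08, adjusted p = 0.41). Of the muscle forms of cytochrome oxidase, Cox6a2 was 9.76, 8.28 and 8.16, against 7.16 to 7.99, whereas Cox7a1 (5.95, 5.26 and 5.0 within 4.46 to 8.06) and Cox8b (7.60, 5.59 and 5.93 within 4.54 to 8.05) overlapped with the others. Citrate cycle genes had a median difference of -0.07 over 11 genes and fatty acid oxidation genes -0.16 over 12. Where all 3 muscle-rich tumors lay below all others, the differences were small: Spon1, a secreted matrix protein, was 6.15, 6.18 and 6.01, against 6.25 to 7.48 (difference -0.69, SE 0.20, adjusted p = 0.51), and Nrp2, a semaphorin receptor, was 10.68, 10.71 and 10.84, against 10.87 to 11.53. An adjusted p above the threshold does not show that these levels were equal.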

How the data were processed

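RNA of 17 TH-MYCN tumors was hybridized to Affymetrix mouse arrays, 1 array per tumor. The deposited values are log2 expression values per probeset that the authors made with RMA, and the labels list Partek version 6.4 beside it. The results section of the study names RMA too, while its methods section names MAS5. The values, 3.28 to 15.59 with array medians of 6.28 to 6.51, are in the range of log2 values. No further normalization was applied. Raw probe intensities were not analysed here.

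Of 45101 probesets, 34945 carried 1 gene symbol in the platform annotation, 932 several, 9160 none and 64 were controls. Each of 18193 genes was represented by its probeset of highest mean. The 3 tumors with the highest average of Myh4, Acta1, Ckm and Tnnc2 were compared with the other 14 over the remaining 18189 genes with limma 3.58.1 (lmFit, eBayes) in R 4.3.3, with Benjamini-Hochberg adjustment over all of them and a threshold of 0.05. The p-values measure only the spread between these tumors. Because the groups were set by muscle genes of the same arrays, muscle genes entered this fit and its counts of calls, but their p-values are not given and the counts are descriptive for them. Of the 483 entries in 39 gene lists, 446 had a probeset here. The tumors and lists were chosen with earlier results of these data known. The rule for named genes took, in each muscle list, the 4 largest and 2 smallest differences, in other lists the members past the threshold or else the largest difference, and outside the muscle and regulator lists the 15 largest among genes past the threshold. Other muscle genes, further members of lists, defining markers, the genes high in mad550 and Hoxc10, Sox6, Prkag3, Car3, Spon1 and Nrp2 were named after their values had been seen. Excess over the other tumors was computed on unlogged values for 32 genes. The fit was tested on simulated data.

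The alternatives covered the probeset that stands for a gene, array centring, a filter on low values, the variance model, a fat covariate, a slope on the ranking average, and each tumor left out in turn. Leaving out mad551 and mad559, next in the ranking, or mad559 and mad562, highest in liver genes, was added after the data were seen. Python 3.11.15, pandas 2.3.3, NumPy 2.4.6 and Matplotlib 3.10.9 were used.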

Additional observations from a re-analysis of the deposited data

How the results depend on the processing

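The 63 genes higher in the muscle-rich tumors became 53 to 65 under array centring, a variance trend with robust fitting, the mean of all probesets, removal of probesets open to cross-hybridization, a fat covariate, or removal of mad551 and mad559, of mad559 and mad562 or of the tumor of lowest correlation, which was mad562. A slope on the ranking average gave 91. With only the 9095 genes at or above the median level, 3 genes were higher and the same 3 at least 2-fold. In the full comparison 59 of the 63 genes had a mean over all tumors below that median and so were not tested. Leaving out each tumor in turn gave 45 (without mad553) to 94 (without mad549) genes higher, 33 (without mad553) to 82 (without mad549) genes at least 2-fold higher, and 0 to 2 genes lower. A lower gene appeared without mad565 (1), mad549 (2) or mad550 (1), and no gene was at least 2-fold lower under any alternative. Smr2 turned from 1.16 to -0.048 without probesets open to cross-hybridization. No other named gene past the threshold turned its direction, with 90 calls lost and 15 gained over all settings. The choice of the 3 tumors did not change under any of the 5 ranking alternatives. No paired analysis was possible because the labels hold 1 group of tumors. Values near the lowest level of an array carry little information on differences between tumors, since no detection calls were used. The cause of the changes other than the filter was not tested.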

Other observations

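Mad553, the tumor with the most muscle RNA, also held high values of genes that no muscle list names. With the 4 ranking genes included, 78 of 18193 genes lay in mad553 at least 2-fold above each of the other 16 tumors. Of these, 45 were in the muscle and regulator lists, all 4 ranking genes among them. Those outside include Slc22a29, an organic anion transporter, at 7.61 against at most 4.64 in the other 14, and Ppp1r3c, a glycogen-targeting subunit of protein phosphatase, at 11.29 against at most 7.56. Neurog2 and Tbr1, transcription factors of developing neurons, were 10.37 and 6.42 in mad553, where the other 14 tumors reached 7.54 and 4.21. Neurog2 was 7.93 in mad550 and 5.70 in mad549, where the median of the other 14 was 5.70, whereas Tbr1 was 4.12 and 3.85. The order of Neurog2 in these 3 tumors was that of the muscle average, as in 2037 of 18189 genes, but mad549 did not lie above the other 14. Lyve1, a marker of lymphatic vessels and tissue macrophages, was 8.71 in mad553 and at most 7.24 in the other 14, and Sema3c, a secreted guidance cue, was 9.69 against at most 7.71. These genes were picked out after their values had been seen, rest on 1 tumor and have no test. By the same count mad549 had 0 such genes, mad550 had 8 and mad562, outside the muscle-rich group, had 266 with none in the muscle lists. The remaining tumors had 0 to 23, with 23 in mad554, 13 in mad565 and 11 in mad563, and likewise none in the muscle lists.

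Among the 14 tumors outside the muscle-rich group, the muscle genes varied by different amounts. Myh1 ranged from 5.42 in mad554 to 9.84 in mad559, while Myh4 was 6.36 and 7.86 in the same tumors and ranged from 6.13 to 7.86. Asb2, a ligase subunit of muscle and blood cells, was highest of all 17 tumors in mad562, at 10.08, against 9.88 in mad553 and 9.10 in mad550.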
